A study of Homo sapiens with 8 samples.

Results

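The autophagy machinery genes described here are 39 genes chosen by name for their role in building the autophagosome. They comprise the ULK1 complex, the class III PI3-kinase complexes, the effectors of the lipid PI3P, the ubiquitin-like conjugation machinery, the ATG8 family, cargo receptors, a pair of MiT/TFE transcription factors and a pair of mitophagy genes. Values of 38 of the 39 were listed, MAP1LC3A being the exception, out of 14528 named genes in all. Of these, 35 members and 12106 genes had a mean of at least 0.5 FPKM over the conditions, a level per length of transcript and per mapped reads. The cells were SQ20B, an established line from a head and neck squamous cell carcinoma, and both groups were grown in DMEM with serum under humidified conditions. The paper describes a dedicated chamber for oxygen deprivation, so any effect of the chamber cannot be told apart from that of oxygen. Normoxia comprised 4 replicates (N1 to N4) and hypoxia 4 replicates (H1 to H4) held at 0.5% O2 for 16 h before polyadenylated RNA was sequenced. The table analysed gives 1 FPKM value per condition, which the authors computed over its 4 replicates, so no spread, standard error or test across replicates can be given for any value below.

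Autophagy encloses cytoplasm in a double membrane that then fuses with the lysosome. The ULK1 kinase complex starts the process, the class III PI3-kinase marks the membrane with PI3P, and WIPI and ATG2 proteins together with the scramblase ATG9A bring in lipid. A conjugation system attaches ATG8 proteins such as LC3B and GABARAP to the growing membrane, where receptors such as p62 (SQSTM1) tether cargo. Low oxygen is known to induce the mitophagy receptors BNIP3 and BNIP3L through the hypoxia-inducible factors (HIF), which bind DNA at a core motif in which ACGTG or GCGTG is the usual run. MiT/TFE factors, which control many autophagy and lysosome genes, bind CACGTG.

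Promoters with a match are shown for ATG14 and ATG9A, both called higher in hypoxia below, for MAP1LC3B as the gene of a common marker of autophagosomes, and for ATG3, whose change lies just inside the limit for a lower call. The 250 bases before each annotated gene start were taken from RefSeq (GRCh38.p14) and searched on both strands for ACGTG, for GCGTG and for CACGTG, each CACGTG also containing ACGTG on both strands. Windows were found for 34 members (44 windows), and none was read for RB1CC1, UVRAG, ATG4D, MAP1LC3A or PINK1. The stretches below run 5′ to 3′ on the strand of the gene, from 12 bases before the first match to at most 12 after the last. Capitals mark the matches on either strand, so that CACGT and CACGC are ACGTG and GCGTG read on the opposite strand. They are ATG14 (chr14:55411834-55411964, minus strand), ATG9A (chr2:219229755-219229783, minus strand), MAP1LC3B (chr16:87392157-87392238, plus strand) and ATG3 (chr3:112561963-112562188, minus strand).
ATG14: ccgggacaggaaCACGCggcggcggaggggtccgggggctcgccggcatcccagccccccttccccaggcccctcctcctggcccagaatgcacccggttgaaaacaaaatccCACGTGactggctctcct
ATG9A: tgagccccgcccCACGTagagcacactat
MAP1LC3B: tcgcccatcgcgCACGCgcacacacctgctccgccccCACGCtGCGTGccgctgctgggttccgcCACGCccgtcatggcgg
ATG3: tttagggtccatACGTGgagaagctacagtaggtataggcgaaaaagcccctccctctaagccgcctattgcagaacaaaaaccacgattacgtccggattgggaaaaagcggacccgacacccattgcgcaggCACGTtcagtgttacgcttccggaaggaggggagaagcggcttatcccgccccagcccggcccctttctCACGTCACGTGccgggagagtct
The ATG14 and ATG3 windows were the member windows with the full CACGTG, 21 and 18 bases before the start where its first base lies. ACGTG was found for 10 members and in 22.7% of their windows, against 22.5% of the 13962 windows of genes at or above 0.5 FPKM and 18.5% of all 35116 windows. GCGTG was found for 17 members and in 45.5% of their windows, against 43.5% and 32.2% of the same sets. CACGTG was found in 4.55% of the member windows, against 8.17% and 6.34%. The windows of GABARAPL1 and OPTN held none of these runs and are not printed. These matches are a description of the windows and were not tested against the changes.

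Changes are given as log2((hypoxia FPKM + 0.1)/(normoxia FPKM + 0.1)) of the FPKM summed over the transcripts of a gene, and folds are taken from the same values. The added 0.1 lowers the change of genes with low FPKM. A gene is called higher or lower where this fold was at least 1.5 and its mean was at least 0.5 FPKM. Of the 35 members at that level, 5 were called higher (14.3%), namely ATG9A, OPTN, GABARAPL1, PINK1 and ATG14, and 1 was called lower, ATG4D (2.86%). Across all 12106 genes, 9.95% were called higher and 11.2% lower. Both member counts are small, and the share called higher lay near that of all genes. The median log2 change of the members was 0.14, against -0.07 for all genes, and 54.3% of the members lay above 0, against 43.6% of all genes. None of these 35 members reached 2-fold.

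The FPKM columns summed to 536005 in normoxia and 458431 in hypoxia, so that the scaling sets where 0 lies. Scaling the columns to equal sums moved the median of all genes to 0.15 and that of the members to 0.36, and it turned the sign of 12 members that lay between -0.20 and 0 as deposited. ATG101, ATG3, ATG4D and ATG16L1 were lower in hypoxia under each scaling tried, and none of the members above 0 as deposited turned negative. In these bulk libraries fewer cells of a kind and less RNA per cell cannot be told apart. A check list of 10 HIF-responsive genes was higher in hypoxia throughout (10 of 10 called, median log2 change 2.74), led by CA9, a carbonic anhydrase (log2 change 4.77), EGLN3, an oxygen-sensing prolyl hydroxylase (3.93), and ANKRD37, an ankyrin repeat protein (3.85). The list was chosen with earlier results of these data known, so its outcome is a description and no independent check. LOX of this list had 0.373 FPKM in normoxia and 1.33 in hypoxia, and passed the limit on the mean through hypoxia. Of 8 squamous epithelial markers, 7 were analysed, all above 0.5 FPKM, with log2 changes from -0.63 to 0.43. KRT5, a basal keratin, had the highest level of them (398 and 442 FPKM), and KRT6A, a keratin of activated epithelium, was the one called lower (5.10 and 3.26 FPKM). Of 5 fibroblast and 4 leukocyte markers, 2 and 1 had values, all below 0.5 FPKM. Of 3 endothelial markers, PECAM1 and VWF had no value. CDH5, an endothelial cadherin, stood at 4.78 FPKM in normoxia and 2.83 under hypoxia.

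**Figure D1:**
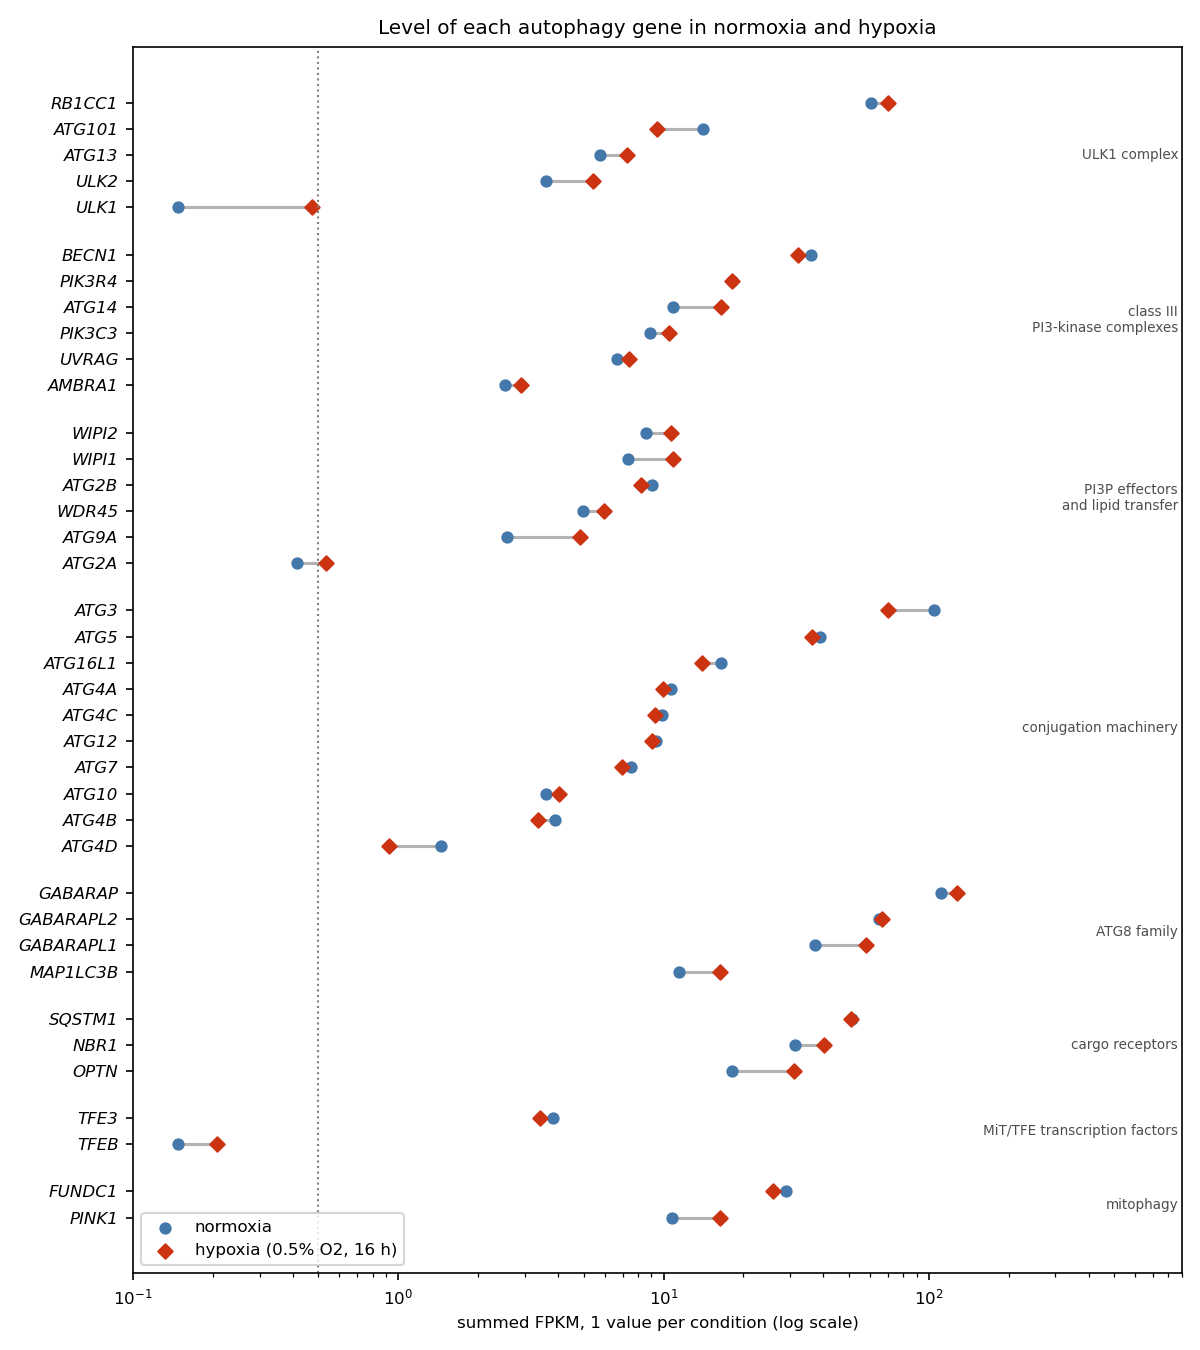
Summed FPKM of each autophagy machinery gene (horizontal axis, log scale) in normoxia (circles) and hypoxia (diamonds), 1 value per condition, grouped by role and ordered by mean level, with the 0.5 FPKM limit dotted. GABARAP stood highest at 111 and 128 FPKM, and ULK1, ATG2A and TFEB had means below the limit.

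**Figure D2:**
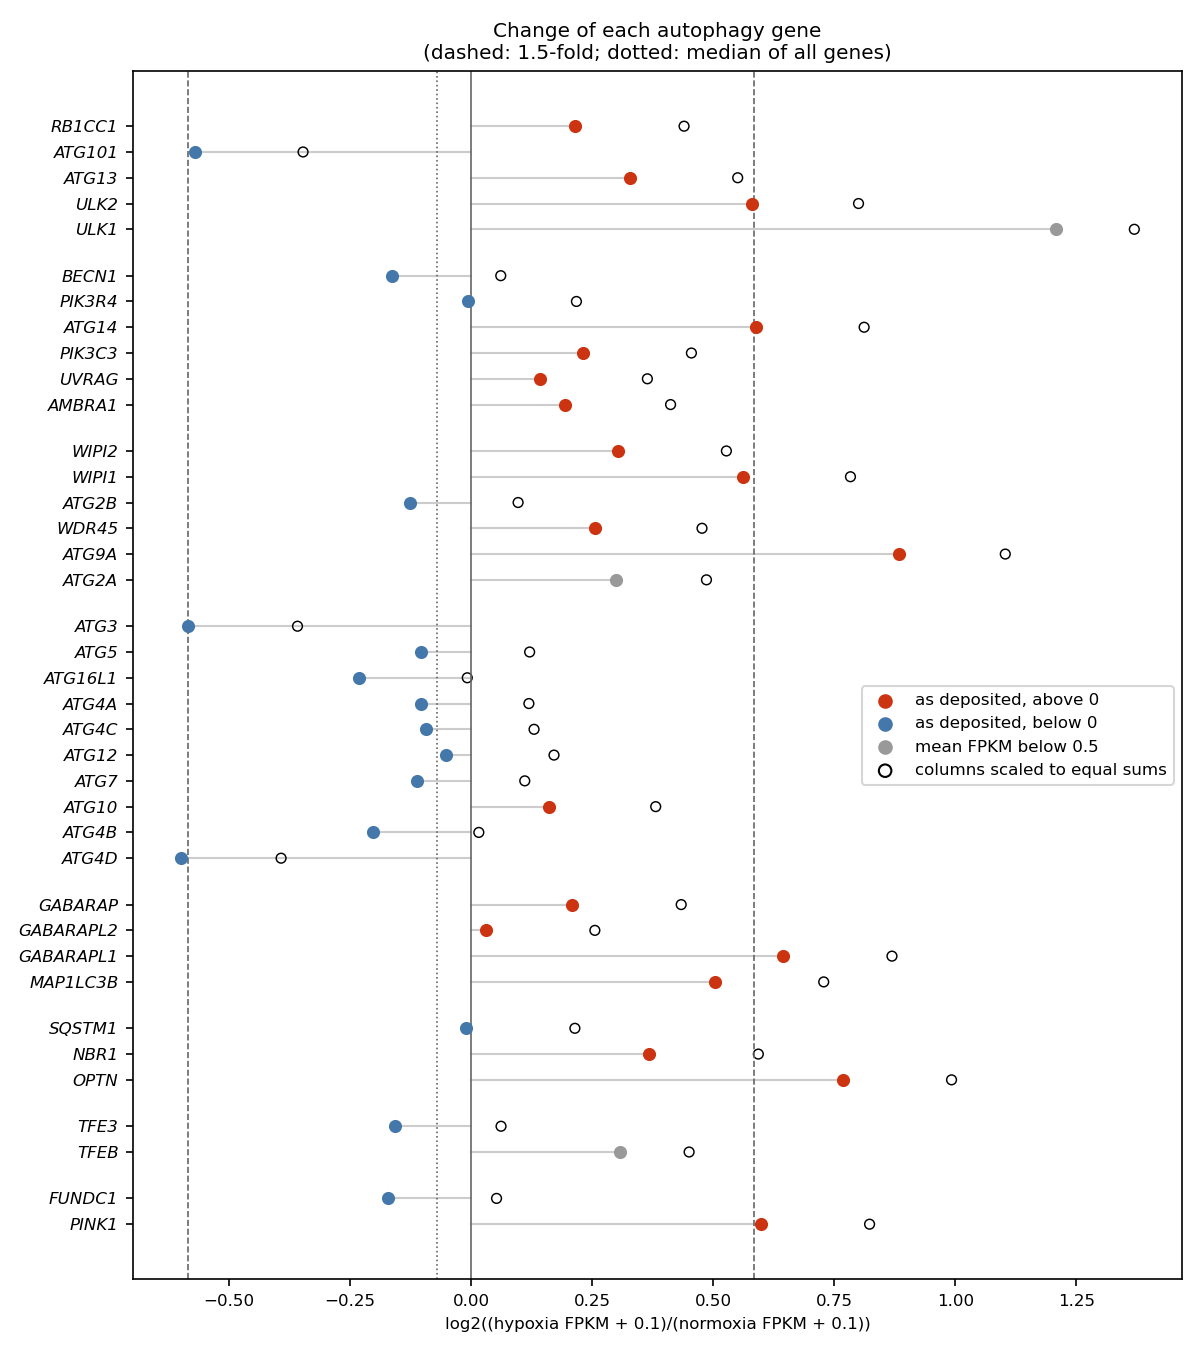
Log2 change of each member (horizontal axis) from the FPKM values as deposited (filled points) and after scaling both columns to equal sums (open points), with the 1.5-fold limits dashed and the median of all genes dotted. ATG9A (0.88) and OPTN (0.77) lie farthest to the right of the members above the FPKM limit, and ATG101, ATG3, ATG4D and ATG16L1 stay left of 0 on both scales.

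The members differed widely in level. GABARAP had the highest mean (119.5 FPKM), followed by ATG3 (87.4 FPKM), GABARAPL2 (65.8 FPKM) and RB1CC1 (65.2 FPKM). SQSTM1 came next at 51.0 FPKM. Without values of single replicates, neighbours in this order such as GABARAPL2 and RB1CC1 cannot be separated. The median mean level of the members was 10.3 FPKM against 9.23 FPKM for all genes at or above the limit. ULK1, ATG2A and TFEB lay below it, at means of 0.311, 0.474 and 0.177 FPKM. Their GC contents were 64.2%, 63.9% and 61.4%, against a median of 47.6% for the 35 members at or above the limit. Whether GC content had a part in these low levels was not tested.

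In the ULK1 complex, the kinase ULK2 was the catalytic subunit with the higher FPKM. ULK2 stood at 3.60 FPKM in normoxia and 5.43 under hypoxia, for a log2 change of 0.58 that stayed just inside the 1.5-fold limit. ULK1, the paralogous kinase, was listed at 0.148 and 0.474 FPKM. Its log2 change of 1.21 rests on values below the FPKM limit and was not called. RB1CC1 (FIP200), the scaffold of the complex, had 60.3 FPKM in normoxia and 70.0 under hypoxia, for a log2 change of 0.21. ATG13, the adaptor that joins the kinase to the scaffold, had 5.76 and 7.26 FPKM, a log2 change of 0.33. ATG101, the partner that stabilizes ATG13, went the other way. Its level was 14.1 FPKM in normoxia and 9.45 in hypoxia, 1.49-fold lower, at percentile 11.9 of the changes of all genes. After equal-sum scaling ATG101 was still below 0 (-0.35). None of the ULK1 complex genes was called in either direction.

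Among the class III PI3-kinase genes, ATG14, the subunit that directs the kinase to sites of autophagosome formation, had the largest change. ATG14 (chromosome 14 of hg19, 55833109 to 55878576) stood at 10.9 FPKM in normoxia and 16.4 under hypoxia, for a log2 change of 0.59 at percentile 90.1. At 1.503-fold it lay just past the limit. UVRAG, which takes the place of ATG14 in the endosomal form of the complex, had 6.68 and 7.38 FPKM (0.14). The core subunits differed little between the conditions. PIK3C3 (VPS34), the catalytic subunit, had 8.92 FPKM in normoxia and 10.5 in hypoxia (0.23). PIK3R4 (VPS15), its regulatory kinase-like subunit, had 18.1 and 18.0 FPKM (-0.01), and BECN1 (Beclin 1), the shared scaffold, 35.9 and 32.0 FPKM (-0.16), both of which turned positive with equal sums. AMBRA1, a regulator of BECN1 and ULK1, had 2.52 and 2.90 FPKM (0.19).

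ATG9A, the transmembrane lipid scramblase carried on the vesicles that seed autophagosomes, had the largest change of the members above the FPKM limit. ATG9A (chromosome 2 of hg19, 220084102 to 220094410) stood at 2.57 FPKM in normoxia and 4.83 in hypoxia, 1.85-fold higher, at percentile 95.6. WIPI1, a PI3P-binding propeller protein, stood at 7.33 and 10.9 FPKM, 1.47-fold higher and short of the limit. The other PI3P-binding propellers were also above 0. WIPI2, which recruits ATG16L1, had 8.60 FPKM in normoxia and 10.6 in hypoxia (0.30), and WDR45 (WIPI4), which binds ATG2, had 4.96 and 5.94 FPKM (0.26). The lipid transfer proteins ATG2A and ATG2B differed in level more than in change. ATG2B had 9.01 and 8.25 FPKM (-0.13, or 0.10 with equal sums), and ATG2A, below the FPKM limit, 0.414 and 0.533 FPKM. The interval of hg19 that is listed for WIPI1 also holds PRKAR1A and other listed genes. Other members shared an interval too: ATG7 with VGLL4, SQSTM1 with MGAT4B and MRNIP, ATG16L1 with SCARNA5 and SCARNA6, and BECN1 with CNTD1. Any part of these neighbours in the values was not tested.

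The conjugation machinery was the group with most members below 0, with 9 of 10 lower in hypoxia and a median log2 change of -0.11 as deposited, but with 7 of 10 above 0 and a median of 0.12 after equal-sum scaling. Median centring and quantile normalization each left 8 of 10 below 0. The group median as deposited lay close to that of all genes (-0.07). ATG3, the E2-like enzyme that transfers ATG8 proteins to lipid, was the most abundant of the group and stood apart from most of it. ATG3 (chromosome 3 of hg19, 112251354 to 112280810) had 105 FPKM in normoxia and 69.9 under hypoxia, for a log2 change of -0.58 at percentile 11.3. At 1.499-fold lower it lay just inside the limit, and it remained lower with equal sums (-0.36). ATG7, the E1-like enzyme that activates both ATG12 and the ATG8 proteins, had 7.57 and 7.00 FPKM (-0.11). ATG10, the E2-like enzyme of the ATG12 branch, was the exception above 0, with 3.61 FPKM in normoxia and 4.05 in hypoxia (0.16).

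The ATG12, ATG5 and ATG16L1 products assemble into the complex that acts as the E3 of ATG8 lipidation. ATG12 had 9.36 FPKM in normoxia and 9.03 in hypoxia (-0.05) and ATG5 39.0 and 36.2 FPKM (-0.10), and both turned positive with equal sums. ATG16L1, which places the complex on the membrane, had 16.5 and 14.0 FPKM (-0.23, or -0.01 with equal sums). The ATG4 proteases process ATG8 proteins before conjugation and release them again. ATG4A had 10.7 FPKM in normoxia and 9.93 in hypoxia (-0.10), ATG4B 3.89 and 3.37 FPKM (-0.20) and ATG4C 9.87 and 9.25 FPKM (-0.09). These changes all turned positive with equal sums. ATG4D (chromosome 19 of hg19, 10654570 to 10676702) was the member called lower, from a low level. It stood at 1.45 FPKM in normoxia and 0.922 in hypoxia, 1.52-fold lower, at percentile 10.6, and it was no longer called with equal sums (log2 change -0.39), with median centring, with 1 FPKM added, with coding transcripts only or relative to genes of like length or GC content. Of its summed level in normoxia, 86.7% was the noncoding entry NR_104025, at 1.26 and 0.798 FPKM. The coding entry NM_001281504 was listed at 0.193 and 0.124 FPKM, below the limit. The interval given for ATG4D is not that of ATG4D alone, since it is also listed for KRI1. KRI1 stood at 2.47 FPKM in normoxia and 1.61 in hypoxia, and its part in the result was not tested.

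All 4 analysed members of the ATG8 family, the proteins conjugated to the autophagosome membrane, were above 0 under every scaling, with a median log2 change of 0.36 as deposited. GABARAPL1 (chromosome 12 of hg19, 10365489 to 10375724) had the largest change of the family, with 37.2 FPKM in normoxia and 58.2 in hypoxia, 1.56-fold higher, at percentile 91.4. MAP1LC3B, the gene of the common autophagosome marker LC3B, had 11.5 and 16.3 FPKM, 1.42-fold higher and short of the limit. GABARAP, the most abundant member of all, had 111 FPKM in normoxia and 128 in hypoxia (0.21). GABARAPL2 (GATE-16) was nearly level at 65.1 and 66.5 FPKM (0.03). Near-identical copies are annotated for some of these genes, and reads could be divided between them. MAP1LC3B2 was listed at 0.396 and 0.502 FPKM and GABARAPL3 at 0.173 and 0.260 FPKM, both far below their counterparts.

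Of the cargo receptors, OPTN (optineurin), a ubiquitin-binding receptor of damaged mitochondria and bacteria, was called higher. OPTN (chromosome 10 of hg19, 13142082 to 13180276) had 18.1 FPKM in normoxia and 31.0 in hypoxia, 1.70-fold higher, at percentile 94.1. NBR1, a receptor of ubiquitinated aggregates and peroxisomes, had 31.2 and 40.3 FPKM (0.37). A further entry in the listed interval of NBR1, NM_031858, could not be paired with a symbol and stood at 6.45 and 9.70 FPKM. With it added, NBR1 had 37.6 and 50.0 FPKM (0.41) and was still not called. SQSTM1 (p62), the most abundant of these 3 receptors, differed hardly at all, with 51.2 FPKM in normoxia and 50.9 in hypoxia (-0.01, or 0.21 with equal sums).

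PINK1, the kinase that accumulates on damaged mitochondria and recruits the ubiquitin ligase parkin, was the remaining member called higher. PINK1 (chromosome 1 of hg19, 20959948 to 20988037) stood at 10.7 FPKM in normoxia and 16.3 in hypoxia, 1.52-fold higher, at percentile 90.4. The same interval is listed for the antisense gene PINK1-AS, at 4.24 and 4.85 FPKM, and for DDOST, at 73.8 and 71.2 FPKM. It is therefore not the position of PINK1 alone. The libraries keep strand, but whether the counting used it is not given in the sources used here, so reads of PINK1 and PINK1-AS may not have been told apart. FUNDC1, a mitophagy receptor of the outer mitochondrial membrane, had 29.0 and 25.7 FPKM (-0.17, or 0.05 with equal sums). The transcription factor TFE3 had 3.84 FPKM in normoxia and 3.43 in hypoxia (-0.16, or 0.06 with equal sums). Its paralogue TFEB, often named the master regulator of lysosome genes, was listed at 0.148 and 0.206 FPKM, below the limit.

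**Figure D3:**
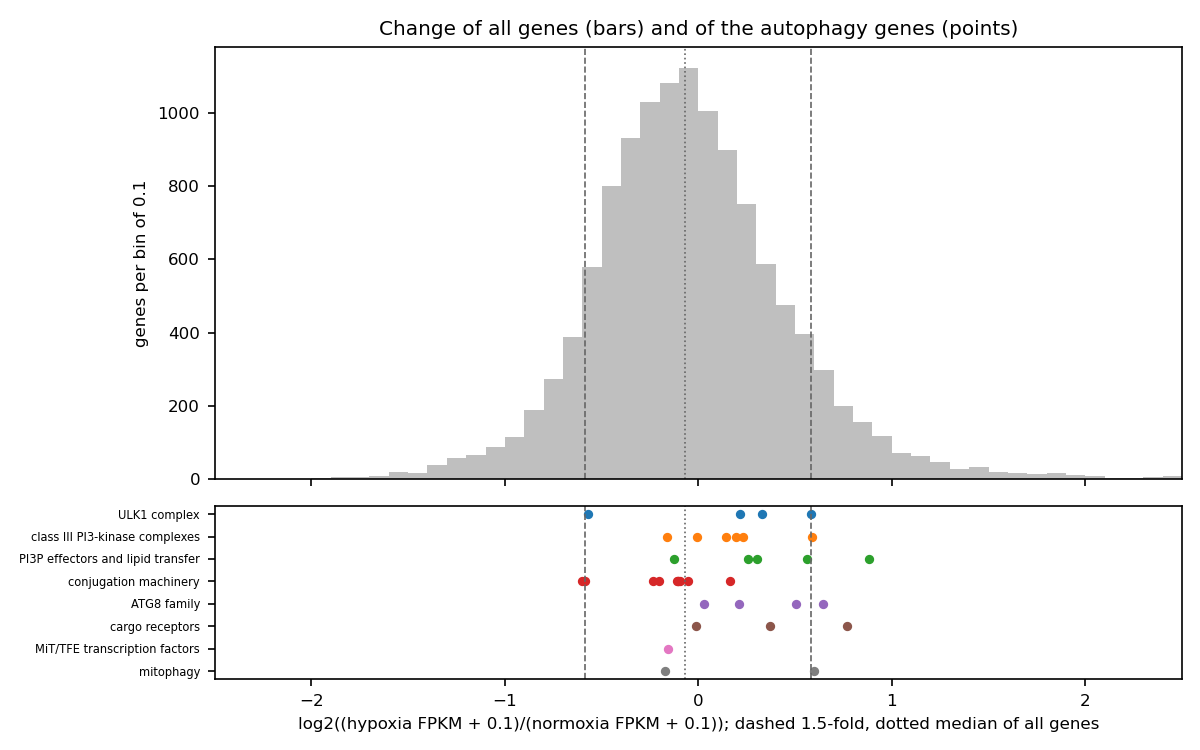
Number of genes per bin of 0.1 in log2 change for all 12106 genes (bars, upper panel) and the log2 change of each of the 35 members by role (points, lower panel), with 1.5-fold limits dashed and the median of all genes dotted. The members lie between -0.60 and 0.88, inside the bulk of the distribution, and genes beyond the axis limits of the plot are not drawn.

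At the level of transcripts, 17 members had a single listed transcript and 21 had more than 1, giving 76 transcripts, of which 56 had a mean of at least 0.5 FPKM. Of these 56, 11 were called higher (19.6%) and 3 lower (5.36%), against 10.5% and 14.3% of the 18190 transcripts at that level. Several transcripts of a gene share its reads and do not count as separate evidence, since 6 of the 11 belonged to WIPI2 and OPTN. WIPI2 NM_001033519 and NM_001278299 lay below 0.5 FPKM in normoxia and passed the limit on the mean through their level in hypoxia. The median log2 change of the member transcripts was 0.13 against -0.09 for all transcripts.

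In WIPI2 the summed change was carried by minor transcripts. The main ones hardly differed, with NM_015610 at 4.04 FPKM in normoxia and 3.97 in hypoxia and NM_016003 at 3.17 and 3.27 FPKM. NM_001033518 had 0.570 and 1.48 FPKM, a log2 change of 1.24, and NM_001033519 had 0.439 and 1.20 FPKM (1.26). The share of NM_015610 in the summed WIPI2 level was thus 46.9% in normoxia and 37.3% in hypoxia, while that of NM_001033518 was 6.63% and 13.9%. OPTN differed in all 4 of its transcripts, and NM_001008213 had the largest change, with 4.90 FPKM in normoxia and 10.5 in hypoxia (1.08). The most abundant OPTN transcript, NM_021980, had 9.83 and 14.8 FPKM (0.58), short of the limit. In ATG16L1 the lower level came from NM_030803, with 5.35 FPKM in normoxia and 3.08 in hypoxia (-0.78), whereas the main transcript NM_017974 had 10.7 and 10.4 FPKM. NM_017974 made up 65.2% of the summed ATG16L1 level in normoxia and 74.5% in hypoxia. In ATG10, NM_001131028 had 0.955 and 1.44 FPKM, with a share of 26.5% in normoxia and 35.7% in hypoxia, and NM_031482 had 2.65 and 2.60 FPKM. For ULK2, NM_001142610 had 2.04 FPKM in normoxia and 3.29 in hypoxia (0.66) and passed the limit that the summed gene did not. ATG5 was split among 6 entries, and its main transcript NM_001286106 was level at 22.2 and 22.6 FPKM while NM_004849 had 10.3 and 8.39 FPKM (-0.29). The main ATG3 transcript, NM_022488, had 99.9 FPKM in normoxia and 66.3 in hypoxia (-0.59) and was called lower on its own. Shares of this kind depend on how Cufflinks divides reads among overlapping transcripts, and no difference between transcripts was tested.

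**Figure D4:**
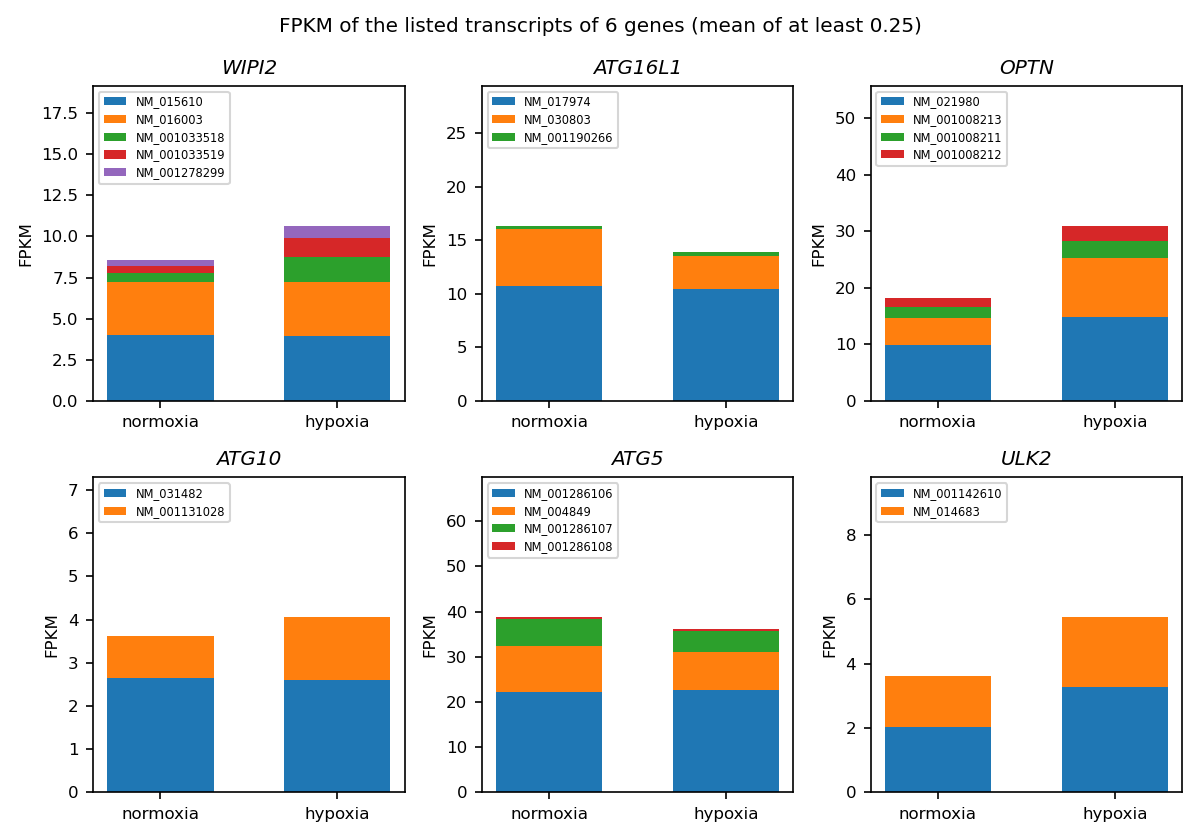
FPKM of the listed transcripts of WIPI2, ATG16L1, OPTN, ATG10, ATG5 and ULK2, stacked from 0, in normoxia and hypoxia, with 1 value per condition and the lowest transcripts left out. In WIPI2 the blue and orange main transcripts are level and the minor ones above them are taller in hypoxia, and in ATG16L1 the orange NM_030803 is shorter in hypoxia.

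Genes that act beside the members were read from 5 further lists, whose counts are to be set beside the 9.95% of all genes called higher and the 11.2% called lower. Among 10 other autophagosome formation genes at or above 0.5 FPKM, 2 were called higher (20.0%) and 0 lower, with a median log2 change of -0.00, or 0.22 with equal sums. They were TP53INP1, an LC3-binding stress protein, at 0.926 FPKM in normoxia and 2.56 in hypoxia (1.37), and WDR45B (WIPI3), a relative of WDR45, at 63.5 and 108 FPKM (0.77). RUBCN, which restrains the PI3-kinase complex, had 2.02 and 1.65 FPKM (-0.27). Of 15 other autophagy and mitophagy receptors, 4 were called higher (26.7%) and 1 lower (6.67%), with a median of 0.23. BNIP3 had 68.9 FPKM in normoxia and 490.4 in hypoxia (2.83) and BNIP3L (NIX) 31.9 and 178 FPKM (2.48), both larger than any change among the members. CALCOCO1, a receptor of the endoplasmic reticulum and Golgi, had 3.10 and 8.23 FPKM (1.38).

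The 27 AMPK and mTORC1 genes, which signal to the ULK1 complex, had a median log2 change of 0.06, with 4 called higher (14.8%) and 0 lower. DDIT4 (REDD1), an inhibitor of mTORC1, had 53.7 FPKM in normoxia and 195 in hypoxia (1.86). The Rag GTPases RRAGD, at 0.210 and 1.06 FPKM (1.90), and RRAGA, at 21.2 and 37.9 FPKM (0.84), which bring mTORC1 to the lysosome, were called higher too. RRAGD and DEPTOR, the remaining gene called higher, lay below 0.5 FPKM in normoxia and passed the limit on the mean through their levels in hypoxia. Among 14 fusion genes, 1 was called higher (7.14%) and 0 lower, with a median of 0.12. It was EPG5, a tether of autophagosomes and lysosomes, at 1.22 and 2.11 FPKM (0.75). VPS33A, of the HOPS tethering complex, had 11.7 and 8.54 FPKM (-0.45), and STX7, an endosomal syntaxin, 13.6 and 18.6 FPKM (0.45). The 37 lysosomal genes had 3 called higher and 3 lower (8.11% each) and a median of 0.07. MANBA, a lysosomal mannosidase, had 10.0 FPKM in normoxia and 19.9 in hypoxia (0.98), LAMP1, a major membrane protein of the lysosome, 37.9 and 63.3 FPKM (0.74), and ATP6V0B, a V-ATPase subunit, 32.4 and 18.4 FPKM (-0.81).

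**Figure D5:**
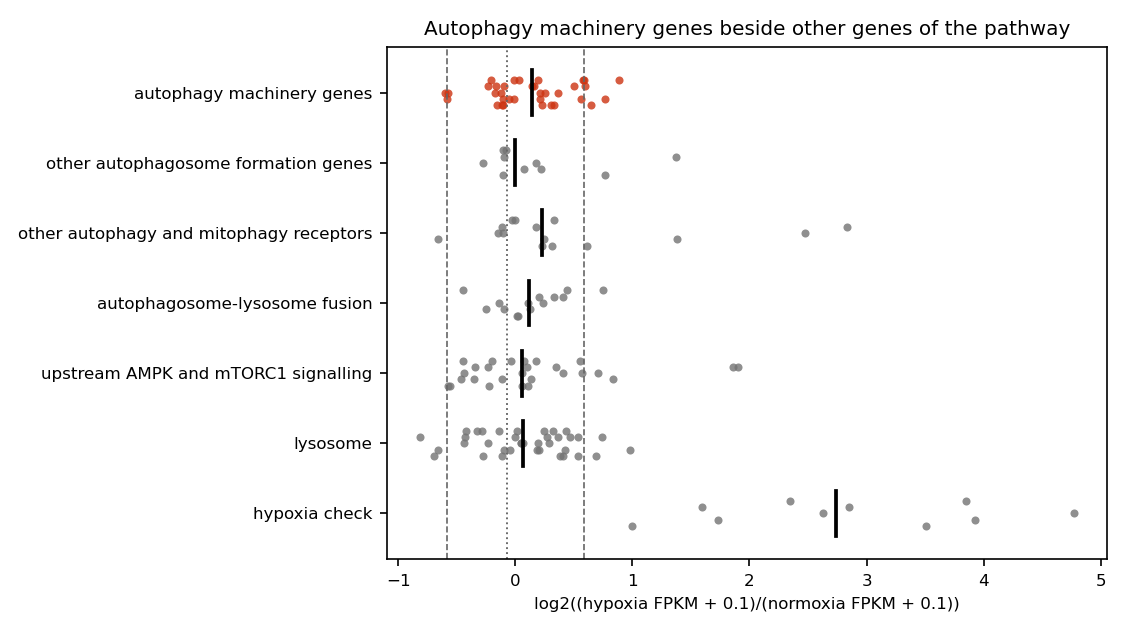
Log2 change (horizontal axis) of each gene at or above 0.5 FPKM in the autophagy machinery (top row) and in 6 other lists, with the median of each list as a black bar, 1.5-fold limits dashed and the median of all genes dotted. BNIP3 (2.83) and BNIP3L (2.48) lie beyond every member, and the check list of HIF-responsive genes has a median of 2.74.

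The change of a gene varied with its level and with its length, taken from its longest annotated protein-coding transcript. Across the 11075 genes with an annotated length (91.5%), Spearman's rho between log2 change and length was 0.25, with a median change of -0.28 in the shortest of 10 bins of genes and 0.14 in the longest. For mean FPKM rho was -0.28, and for GC content 0.01. Across the 35 members the values were 0.22, 0.02 and 0.06, and the members' median length of 3291 bases was close to the 3553 bases of all genes. These are descriptions across genes of the same libraries, which are not independent. Relative to genes of the same length bin, 7 members were higher and 0 lower by at least 1.5-fold, against 11.6% and 7.72% of all genes.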

How the data were processed

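The authors aligned stranded poly(A) reads with STAR 2.3.0.1 and ran Cuffdiff (Cufflinks 2.1.1) on RefSeq hg19, with standard parameters. The FPKM values deposited by the authors are 1 per condition over 4 replicates. Their fold changes, test statistics, p-values and q-values stand beside these and were not used. Conditions came from the source label, since the treatment text is repeated for normoxia. The table held 24812 rows, of which 24293 (97.9%) were paired with a symbol through RefSeq, and a gene's rows were summed. The paper gives the same number, 24812, for the transcripts expressed in these cells. Transcripts and genes without a row are thus absent from the sums and from the values of all genes. No interval or floor from counting error is given, as the depths of single libraries were not used here. Locus positions are those deposited (hg19, counted from 1) and can cover more than 1 gene. Lengths and GC content are those of the longest protein-coding GENCODE transcript of each gene (GRCh37), which need not be the transcript quantified. Genes named are all members and, from each other list, the 3 with the largest absolute log2 change at or above 0.5 FPKM. KRT5, KRT6A, CDH5, LOX, DEPTOR and genes sharing an interval or sequence with a member were added after their values were seen. The members and lists were chosen with earlier results of these data known. The planned description without a test was followed. The script that makes the calls was run on simulated data with planted changes well past the 1.5-fold limit. That run does not bear on calls near the limit. Python 3.11.15, numpy 2.4.6, pandas 2.3.3, scipy 1.17.1 and matplotlib 3.10.9 were used.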

Additional observations from a re-analysis of the deposited data

How the results depend on the processing

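No paired analysis was possible because the values are 1 per condition, and for the same reason no replicate block and no fit without each replicate was run. The members' median log2 change lay above 0 under every alternative run, from 0.024 with the most abundant transcript of each gene only to 0.36 with equal FPKM sums. The counts moved more. With 1 FPKM added in place of 0.1, 3 members were higher and 0 lower (all genes 5.94% and 8.52%), and ATG14, PINK1 and ATG4D were no longer called. With equal sums 9 were higher and 0 lower (ULK2, WIPI1, MAP1LC3B and NBR1 added, ATG4D lost), against 18.2% and 4.96% of all genes. Median centring gave 7 higher and 0 lower (all genes 12.4% and 8.76%). With the most abundant transcript only, 5 were higher and 2 lower (all genes 10.1% and 11.8%). The lower ones were ATG3 and ATG4D, and OPTN was not called higher, while WIPI2 and ATG10 lay below 0 and ATG5 lay above it. With coding transcripts only 5 were higher and 0 lower (all genes 9.78% and 11.4%), and ATG4D was lost, since its main entry is noncoding. A looser limit, 0.32 on the log2 scale, gave 10 higher and 3 lower (all genes 20.6% and 27.8%), and a limit of 2-fold 0 and 0 (3.21% and 2.62%). Alternatives chosen after seeing the data took changes relative to genes of the same of 10 bins of a property. Bins of length gave 7 higher and 0 lower (all genes 11.6% and 7.72%). Bins of GC content also gave 7 and 0 (all genes 12.2% and 8.49%), and bins of mean FPKM 6 and 1 (all genes 10.6% and 9.00%). ATG9A and GABARAPL1 were called higher under every alternative that kept the 1.5-fold limit. The call of ATG4D depends on the scaling, the added value and the transcripts summed, and those of ATG14 and PINK1 on the added value. Other causes of these moves were not tested, and precision is limited by the lack of replicate values.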

Other observations

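The lysosomal list, which borders the autophagy machinery, was split into V-ATPase subunits and other genes after the values were seen. As deposited, 43.6% of all genes lay above 0, and with equal FPKM sums 7714 of 12106 did. Of all genes, 9.95% were called higher and 11.2% lower as deposited. The counts called in each part are small and are to be read beside these shares. Of the 13 V-ATPase subunits, which acidify the lysosome, 2 were called lower, ATP6V0B and ATP6V0D1, and 0 higher. Their log2 changes lay below 0 for 11 of 13 as deposited (median -0.27) and for 8 of 13 with equal sums (median -0.05). ATP6V0D1 had 18.6 FPKM in normoxia and 11.8 under hypoxia, for a log2 change of -0.66, and ATP6V1A, a catalytic subunit, had 70.0 and 57.6 FPKM (-0.28). Of the other 24 lysosomal genes, 3 were called higher and 1 lower, NAGLU, a lysosomal glucosaminidase (-0.69). Their changes lay above 0 for 21 of 24 as deposited (median 0.30) and for 22 of 24 with equal sums (median 0.53). The protease gene CTSB had 95.7 and 130 FPKM (0.44) and CTSD 3.17 and 4.42 FPKM (0.47), while LAMP2 was nearly level at 37.0 and 38.2 FPKM. No test of this split was made.

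PHB2, a mitophagy receptor of the inner mitochondrial membrane, was the receptor called lower, with 149 FPKM in normoxia and 94.2 in hypoxia, 1.58-fold lower. DEPTOR, an mTORC1 component, was the remaining gene of its list called higher, from a level near the FPKM limit, at 0.357 and 0.649 FPKM (0.71). WDFY3 (ALFY), a scaffold for aggregate clearance, had 3.78 FPKM in normoxia and 5.82 in hypoxia, 1.53-fold higher. These genes were named after their values were seen.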
